A study of Mus musculus with 6 samples.

Results

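A-kinase anchoring proteins (AKAPs) are scaffolds that bind the regulatory subunits of protein kinase A (PKA) and hold the kinase at a chosen place in the cell, next to its substrates and to the phosphatases and phosphodiesterases that end the signal. In skeletal muscle they place PKA at the outer mitochondrial membrane, the nuclear envelope, the calcium channels of the triad and the costamere. One of the substrates reached in this way is the mitochondrial fission GTPase Drp1, which PKA phosphorylates at the mitochondrial surface on the scaffold AKAP1. The 10 genes described here are Akap1, Akap6, Akap7, Akap8, Akap9, Akap10, Akap11, Akap12, Akap13 and Cmya5 (cardiomyopathy associated 5, or myospryn, a muscle scaffold with AKAP function). They were chosen by name as anchoring proteins with a known place in muscle, and are 10 of the 27179 genes listed in the count files and of the 16483 with enough reads to be tested.

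The question was whether transcripts of these scaffolds differ when Dnm1l, the gene for Drp1, is deleted from adult muscle. Total RNA of quadriceps muscle was sequenced from 3 miDrp1KO mice (libraries A, E and F) and 3 controls (libraries B, C and D). The miDrp1KO mice carry floxed Dnm1l alleles and HSA-MerCreMer, a tamoxifen-inducible Cre recombinase driven by the human skeletal actin promoter. The controls are labelled f/f and carry floxed alleles with no recombinase named for them, and the study's methods allow 1 or both alleles to be floxed in controls. All 6 mice were on normal chow, the floxed line had been backcrossed to C57BL/6J, and both genotypes received 4 daily doses of tamoxifen, 50 mg/kg each, when 3 months old. Muscle was taken 3 weeks after deletion. The promoter confines Cre to muscle fibres, whereas whole quadriceps also holds vessels, nerve, fat, fibroblasts and immune cells that keep Dnm1l. Fewer cells of a type and less RNA per cell cannot be told apart in such bulk samples.

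Libraries held 13989588 to 62042255 counts in controls and 20028624 to 28829756 in miDrp1KO muscle. Dnm1l was measured at 156, 114 and 140 CPM (counts scaled to the size of the library) in the controls, listed here and below in the order B, C, D, and at 70.6, 81.3 and 66.2 CPM in A, E and F, so every library was on the side its label gives (log2 fold change −0.91, SE 0.18; adjusted p = 0.362, edgeR). Esr1, part of which the MerCreMer fusion carries, was higher in miDrp1KO muscle by 3.87 on the log2 scale (adjusted p = 1.07e-04, edgeR). Ribosomal RNA took 1.48% (E) to 24.4% (F) of the counts and did not separate the genotypes. The 12 markers of muscle fibres were abundant in all libraries, but their summed level was 269316 to 331036 CPM in controls and 117401 to 250384 CPM in miDrp1KO muscle, with library F lowest. Taken singly, Acta1, Myh4, Ryr1 and Tnnt3 were lower without overlap, as were 10.3% of all tested genes. The groups of the other fibre markers overlapped, with Mylpf and Pvalb at 97.9% and 102% of their control means. Summed adipocyte markers also separated the groups, at 422 to 676 CPM in controls and 280 to 399 CPM in miDrp1KO muscle. Summed markers of slow fibres, fibroblasts, endothelium, smooth muscle, macrophages, nerve and satellite cells overlapped between genotypes. No marker was at 0 in all libraries. At an unadjusted p under 0.05 (edgeR), 3 of 12 fibre markers and 3 of 6 adipocyte markers were lower in miDrp1KO muscle. Macrophages had 3 of 7 markers higher, and satellite cells had 1 of 5 lower and 1 higher. The remaining lists had none. Of all 16483 tested genes, 1025 (6.22%) were lower and 771 higher at that level. The part of these marker shifts in the results below was not tested.

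None of the 10 anchoring protein genes passed the test across all genes at an adjusted p under 0.05 (edgeR quasi-likelihood test), and limma voom and DESeq2 called none either. The genome-wide background of this call was 0.0121% of tested genes (2 of 16483), and DESeq2 called 2.34% of the 4018 genes to which it gave an adjusted p, a set with 8 of the 10 in it. At an unadjusted p under 0.05 edgeR again picked none of the 10, against 10.9% of all tested genes in either direction and 6.22% in the lower direction. DESeq2 picked Cmya5 and Akap6 at that level, beside 10.4% of all genes, and voom picked Akap6, beside 12.8% of all genes. The fitted log2 fold change was below 0 for all 10, with a median of −0.28 against 0.02 over all genes, but only 6 of 10 were below 0 and the median was −0.08 without library F. With upper quartile scaling, which moved the median of all genes to 0.11, 7 of 10 were below 0. Cmya5 and Akap6 were the 2 genes whose groups did not overlap, both lower in miDrp1KO muscle, where 18.0% of all tested genes did not overlap and 10.3% did so with the miDrp1KO libraries lower.

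**Figure D1:**
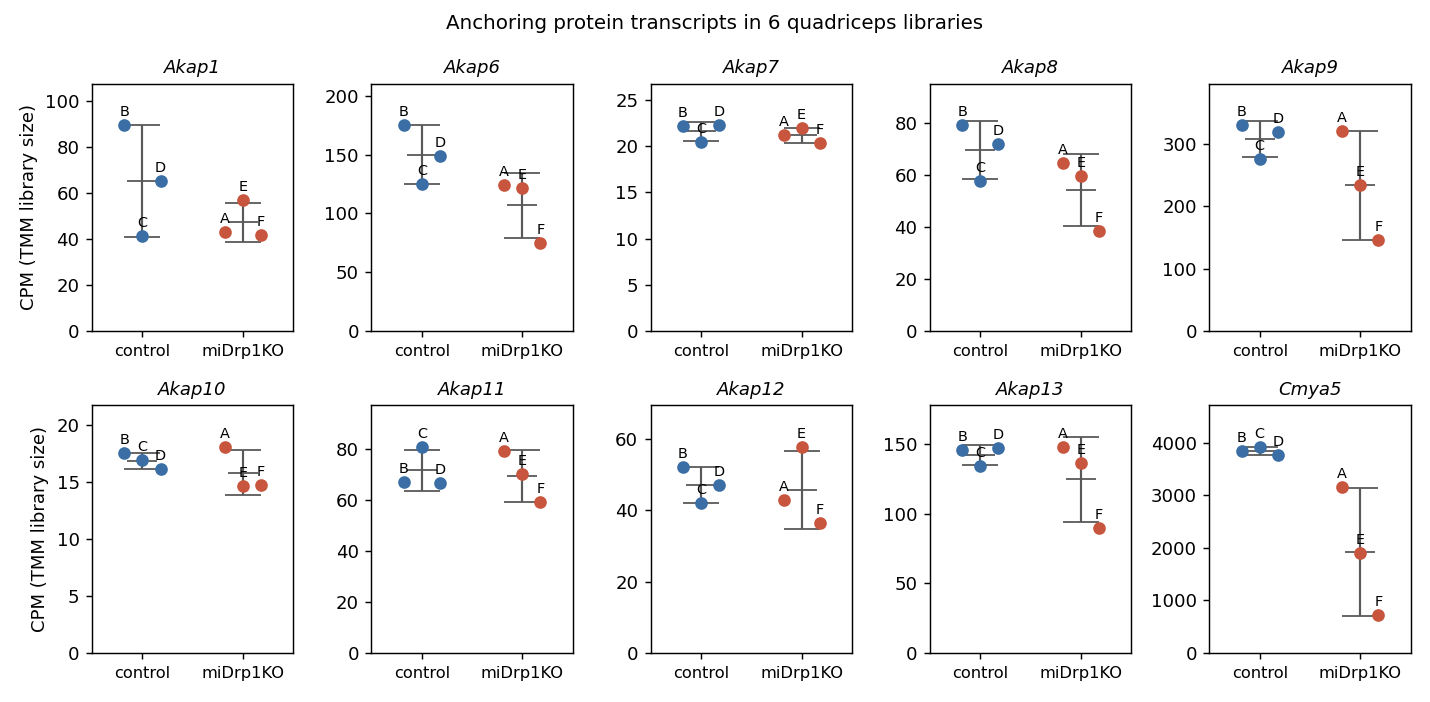
Level of each anchoring protein gene in CPM (y axis from 0, a separate scale for each gene) in the 3 control and 3 miDrp1KO libraries, with letters naming libraries and grey bars giving mean ± SD. Cmya5 sits at 3762 to 3926 CPM in controls and spreads from 719 to 3150 CPM in miDrp1KO muscle, whereas Akap7 lies at 20.3 to 22.3 CPM in all 6 libraries.

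Sequences before a transcript start in each of 3 genes that differ in their values are shown for reference. Cmya5 and Akap6 are the 2 without overlap between the genotypes, and Akap7 is the one with the smallest fitted difference. The Cmya5 window lies just outside the gene, whereas the Akap6 and Akap7 windows lie inside the gene spans given below. Each line gives the 250 bases before a RefSeq transcript start (GRCm38.p6), written 5′ to 3′ on the gene's own strand, and capitals mark matches on either strand to the cyclic AMP response element short site TGACG or the E-box CANNTG, the motif of MyoD-type factors.
Cmya5, chr13:93144725-93144974, minus strand: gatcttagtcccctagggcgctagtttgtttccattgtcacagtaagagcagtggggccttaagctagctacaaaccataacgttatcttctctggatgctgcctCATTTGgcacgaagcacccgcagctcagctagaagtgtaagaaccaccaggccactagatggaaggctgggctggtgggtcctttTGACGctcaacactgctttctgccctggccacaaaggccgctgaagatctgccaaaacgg
Akap6, chr12:52699133-52699382, plus strand: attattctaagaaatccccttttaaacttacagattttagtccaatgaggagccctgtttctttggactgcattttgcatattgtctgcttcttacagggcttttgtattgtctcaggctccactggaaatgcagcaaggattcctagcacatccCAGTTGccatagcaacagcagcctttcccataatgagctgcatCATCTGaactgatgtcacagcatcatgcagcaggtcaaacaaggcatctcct
Akap7, chr10:25297080-25297329, minus strand: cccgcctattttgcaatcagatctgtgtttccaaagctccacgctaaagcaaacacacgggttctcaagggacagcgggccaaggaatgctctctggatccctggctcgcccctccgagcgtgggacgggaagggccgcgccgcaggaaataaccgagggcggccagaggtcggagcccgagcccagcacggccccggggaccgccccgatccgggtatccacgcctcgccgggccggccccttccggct

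Of the 10 genes, 9 had at least 1 RefSeq promoter entry, 13 windows in all, and Akap12 had none. The short site TGACG was in the windows of Cmya5 and Akap11, 2 of the 13, and in 17.8% of 32851 mouse promoter windows of this length. The E-box was in 11 of the 13 windows, which belong to 8 of the 9 genes, and in 66.2% of all windows. Overlapping Akap1 windows hold the same E-box, so that site is counted more than once. The Akap7 window printed above lacks the motif, but a second Akap7 window (chr10:25200150-25200399) holds 3. The full response element TGACGTCA (1.55% of all windows), the NBRE octamer AAAGGTCA bound by the Nur77 family (1.34%) and the MEF2 motif (2.92%) had no match in the 13. The full element TGACGTCA would also hold the short site. These counts describe letters in a short window and say nothing about binding.

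Cmya5 was by far the most abundant of the 10 and had the lowest unadjusted p. It lies on the minus strand at chr13:93040713-93144724 (GRCm38), and its protein, myospryn, binds the regulatory subunit RIIα of PKA together with desmin at the costamere and the Z-disc. Its level was 3841, 3926 and 3762 CPM in the controls, whereas miDrp1KO libraries A, E and F had 3150, 1905 and 719 CPM. All 3 miDrp1KO libraries lay below all 3 controls, and they differed from one another by 4.38-fold where the controls differed by 1.04-fold. The control mean was 3843 ± 82.0 CPM (SD, n = 3) and the miDrp1KO mean 1925 ± 1215 CPM, which is 50.1% of it. The log2 fold change was −1.00 (SE 0.45, 95% interval −2.00 to 0.0059; adjusted p = 0.460, edgeR), and an exact two-sided permutation test gave p = 0.1, the smallest value that 3 against 3 libraries allow.

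The size of the Cmya5 difference depended on single libraries. Library A was at 82.0% of the control mean, E at 49.6% and F at 18.7%. Leaving out A gave a log2 fold change of −1.53 and leaving out F gave −0.59, and the adjusted p was between 0.102 and 0.877 over 16 fits with edgeR, voom or DESeq2 (0.127 with DESeq2 on all 6 libraries). Beside the summed muscle fibre markers, Cmya5 was 1.22%, 1.46% and 1.14% of that sum in controls B, C and D, and 1.26%, 1.25% and 0.613% in A, E and F. On this ratio A and E lay among the controls and F alone lay below them. Without Ttn, the gene of the giant sarcomere protein titin, the controls were at 1.96% to 2.21%, A at 2.15%, E just above them at 2.23% and F at 0.790%. Ttn and Myh4 carried much of the sum, with control means of 122651 and 57018 CPM. In miDrp1KO muscle they were at 53.5% and 40.8% of these. Mylpf and Pvalb, also in the sum, were at 97.9% and 102% of their control means. Where A and E lie thus depends on the markers summed, and ratios to single markers are not given here. The ratio to the summed markers was set up after the values were seen.

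Antisense transcripts overlap Cmya5. GENCODE M21 places 2570 of its 11850 exonic bases, or 21.7%, under exons of other genes, mainly the antisense gene A630019I02Rik. That gene had only 42 to 286 counts per library in the same files, and a second one, Gm4814, had 56 to 182, against 14987 to 225847 counts for Cmya5. The library kit keeps strand, but the strand setting used in counting is not given in the sources used here.

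Akap6 encodes mAKAP, the scaffold of the nuclear envelope that gathers PKA, phosphodiesterase 4D3 and calcineurin and that anchors signalling to MEF2 in muscle cells. It lies at chr12:52698588-53155568 (GRCm38, plus strand). Controls B, C and D had 175, 125 and 149 CPM, and A, E and F had 124, 121 and 75.3 CPM. The groups touched without overlap, as the highest miDrp1KO library (124.1 CPM) was barely under the lowest control (125.1 CPM). The log2 fold change was −0.49 (SE 0.23, 95% interval −0.98 to 0.0091; adjusted p = 0.464, edgeR), with an exact permutation p = 0.1. Without library F it was −0.27.

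Akap1 encodes the scaffold of the outer mitochondrial membrane, where PKA reaches Drp1. The gene lies at chr11:88830792-88864596 (GRCm38, minus strand). It was measured at 89.8, 41.2 and 65.2 CPM in the controls and at 43.3, 57.1 and 41.7 CPM in A, E and F. The groups overlapped in full, since control C had the lowest value of the 6, and the controls spread 2.18-fold, more than for any of the other 9 genes. The log2 fold change was −0.47 (SE 0.26, 95% interval −1.05 to 0.12; adjusted p = 0.554, edgeR), with an exact permutation p = 0.4. It ranged from −0.73 without control C to −0.15 without control B.

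Akap8, Akap9 and Akap13 gave values of the same sign as Akap6, with library F lowest in each. Akap8, which encodes the nuclear matrix scaffold AKAP95, was at 79.5, 57.8 and 72.2 CPM in the controls and at 64.9, 59.8 and 38.7 CPM in A, E and F. A and E lay within the control range and only F was below it (log2 fold change −0.36, SE 0.21; adjusted p = 0.567, edgeR), and without F the log2 fold change was −0.14. Akap9 encodes AKAP450, the large scaffold of the centrosome and the Golgi that nucleates microtubules. Its levels were 330, 275 and 319 CPM in controls and 320, 234 and 145 CPM in A, E and F, so that A matched the controls while E and F were lower (log2 fold change −0.40, SE 0.26; adjusted p = 0.600, edgeR). For Akap9 the log2 fold change was −0.13 without F and −0.68 without A. Akap13 encodes AKAP-Lbc, a PKA scaffold that is also a guanine nucleotide exchange factor. It was at 146, 134 and 147 CPM in controls and at 148, 136 and 89.9 CPM in A, E and F, with A the highest of all 6 libraries, and the log2 fold change of −0.19 (SE 0.21; adjusted p = 0.769, edgeR) became 0.02 without F.

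The other 4 genes differed least. Akap7 encodes AKAP15/18, the small scaffold that ties PKA to the voltage-gated calcium channel of the transverse tubule, and was at 22.1, 20.4 and 22.3 CPM in controls and 21.2, 22.0 and 20.3 CPM in A, E and F. Its log2 fold change of −0.03 had the 95% interval −0.35 to 0.29, the narrowest of the 10. Akap10, whose product binds both classes of regulatory subunit, was at 16.1 to 17.6 CPM in controls and 14.6 to 18.1 CPM in miDrp1KO muscle, with an interval of −0.44 to 0.26. Akap11, which encodes a scaffold for type I PKA, GSK3β and protein phosphatase 1, was at 66.8 to 81.0 CPM in controls and 59.1 to 79.4 CPM in miDrp1KO muscle (interval −0.42 to 0.34). Akap12 encodes gravin, the scaffold of the β-adrenergic receptor at the plasma membrane, and was at 41.9 to 52.1 CPM in controls and 36.3 to 57.8 CPM in miDrp1KO muscle (interval −0.47 to 0.38). The adjusted p of these 4 was 0.864 to 0.960 (edgeR), and under other settings the fitted sign of Akap7, Akap11 and Akap12 turned positive.

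In GRCm38, Akap8 lies at chr17:32303672-32321238 (minus strand), Akap9 at chr5:3927736-4080204 (plus strand) and Akap13 at chr7:75455526-75754609 (plus strand). Akap7 lies at chr10:25169090-25299217 (minus strand) and Akap12 at chr10:4266329-4359471 (plus strand), and Akap10 and Akap11 at chr11:61865203-61930308 and chr14:78492246-78536980 (both minus strand). Akap9 shares 166 exonic bases (1.26%) with Cyp51, which had 107 to 740 counts per library against 3025 to 19141 for Akap9, and Akap7 shares 47 (1.22%) with another gene.

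**Figure D2:**
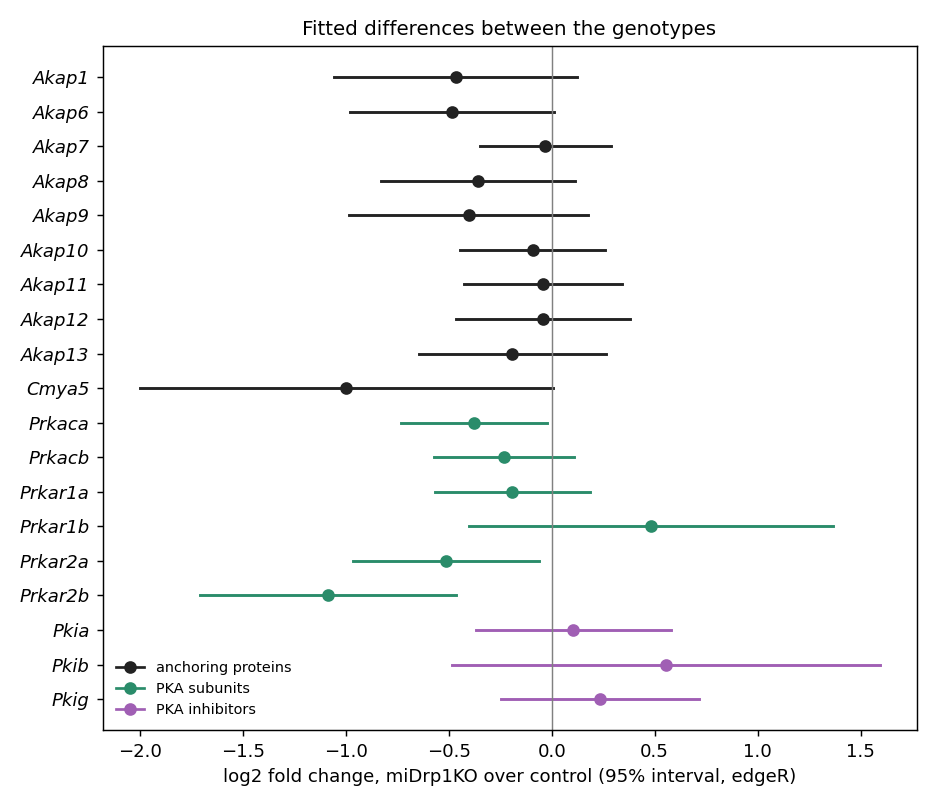
Log2 fold change of miDrp1KO over control (x axis) for the 10 anchoring protein genes, the 6 PKA subunits and the 3 PKA inhibitors, with points for the edgeR estimate and bars for its 95% interval. The intervals of all 10 anchoring proteins include 0, from −2.00 to 0.0059 for Cmya5 to −0.35 to 0.29 for Akap7, and those of Prkaca, Prkar2a and Prkar2b do not.

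Library F carried much of the common direction. It was the lowest of the 6 libraries for 8 of the 10 genes and below the lowest control for 9, against 4 for E and 2 for A. Over the 10 genes the median log2 ratio to the control mean was −0.07 in A, −0.20 in E and −0.66 in F. F had the highest share of ribosomal RNA counts, 24.4% (23.0% in A), and the lowest summed fibre markers. With the ribosomal RNA share as a term in the edgeR model the median log2 fold change was −0.27. The part of fibre content in the values of F was not tested.

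**Figure D3:**
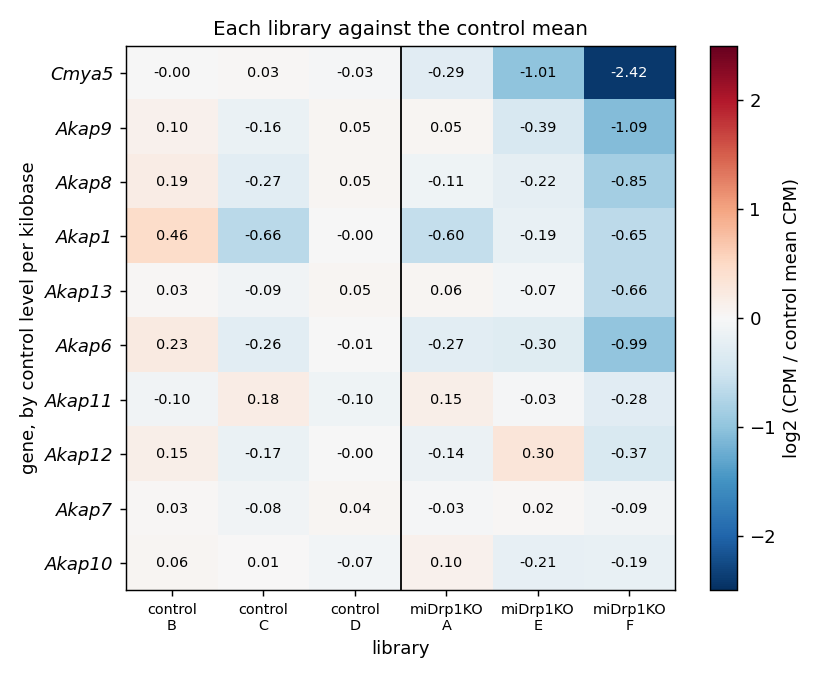
Log2 ratio of each library to the control mean (colour and printed value) for the 10 genes (rows, by control level per kilobase of exon) in 3 control and 3 miDrp1KO libraries (columns). Library F holds the lowest value in 8 of 10 rows, down to −2.42 for Cmya5, while Akap1 varies most among the controls.

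Across the 6 libraries, levels of several of these genes went up and down together. Of 45 pairs, 12 had a Pearson r of log2 CPM over 0.8 and 3 were below 0, with a median of 0.67. The same values over all gene pairs are not given here, so these counts have no background. With group means removed, Akap6 with Akap8 was at r = 0.990, whereas Akap1 with Cmya5 went from 0.41 to 0.10. The closest pair was Akap6 and Akap8 (r = 0.985), followed by Akap9 with Akap13 (r = 0.967) and Akap9 with Cmya5 (r = 0.964), and the most opposed was Akap1 with Akap11 (r = −0.29). All pairs share the same 6 libraries, among them F. The tested genes most like Cmya5 over those libraries were Dicer1, Gtpbp4, Morc2a, Anapc1 and Golga4, with r from 0.997 to 0.9995, and 430 of 16482 genes had an r over 0.95, so this profile was shared by many. Golga4 was at 49.3% of its control mean, near Cmya5 at 50.1%, whereas Dicer1 was at 69.9%.

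Per kilobase of exon, a scale on which genes can be compared, Cmya5 stood at 324 ± 6.92 CPM (SD, n = 3) in control quadriceps. Akap9 came next at 23.5 ± 2.21, then Akap8 at 18.7 ± 2.95, Akap1 at 16.4 ± 6.10, Akap13 at 11.3 ± 0.573, Akap6 at 10.1 ± 1.69, Akap11 at 7.65 ± 0.865 and Akap12 at 7.42 ± 0.807. From Akap9 to Akap12 the control range of each gene overlapped that of the next, so neighbours in this order did not separate beyond their spread. Akap7 (5.60 ± 0.268) and Akap10 (2.85 ± 0.121) closed the order, each below the control range of the gene above it. In miDrp1KO muscle Cmya5 was at 162 ± 103 CPM per kilobase and still first, and Akap9 was at 17.8 ± 6.66. Cmya5 made up 73.6%, 78.8% and 75.2% of the summed level of the 10 genes per kilobase in B, C and D and 73.4%, 63.6% and 48.7% in A, E and F. The log2 ratio of Cmya5 to the other 9 genes in CPM was 2.11 ± 0.17 in controls and 1.21 ± 0.71 in miDrp1KO muscle, a difference of −0.90 (exact two-sided permutation p = 0.1, n = 3), and A (1.87) lay nearest to the lowest control (1.97). That difference was −1.23 without A and −0.53 without F.

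The genes also differ in length. Cmya5, Akap6, Akap9 and Akap13 have 11850, 14848, 13123 and 12609 exonic bases, against a median of 3393 over tested genes with a length, and are the 4 of the 10 with a mean over 100 CPM. Among all genes over 100 CPM, 90.0% of the 160 longer than 8 kb had a log2 fold change below 0, with a median of −0.28. The share was much the same at 2 to 4 kb (84.6%, median −0.28) and 4 to 8 kb (88.3%, median −0.30), and the 180 genes shorter than 2 kb had a median of −0.02 with 53.3% below 0. Over all levels of expression, genes longer than 8 kb had a median of −0.03 with 53.6% below 0. The 4 long scaffolds, at −1.00, −0.49, −0.40 and −0.19, thus lay in a class of abundant genes where values below 0 were usual. Akap1 and Akap8, with 3979 and 3731 exonic bases, had means under 100 CPM. With offsets for length and GC content the 10 genes kept a median of −0.26, and Cmya5 (3097, 1747 and 829 CPM in A, E and F against 3461 to 4261 CPM in controls) and Akap6 were the 2 under an unadjusted p of 0.05 in edgeR, as were 11.7% of all genes in that fit. The groups of Akap7 then no longer overlapped, at 21.2 to 23.1 CPM in controls and 20.3 to 20.6 CPM in miDrp1KO muscle. The share of all genes without overlap in that fit is not given here.

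**Figure D4:**
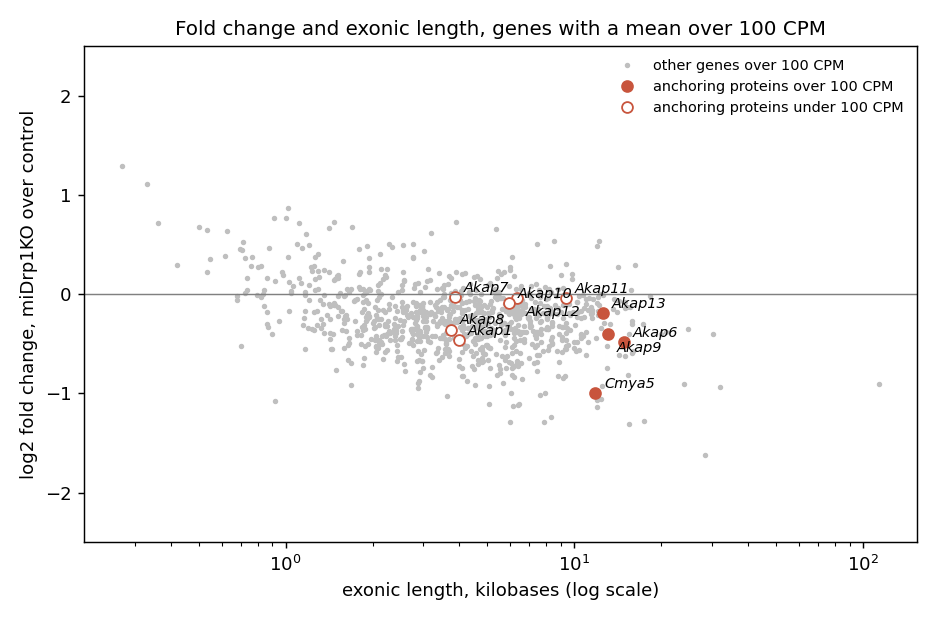
Log2 fold change of miDrp1KO over control (y axis) against exonic length in kilobases (x axis, log scale) for genes with a mean over 100 CPM (grey, with 1 gene beyond the axis) and for the 10 anchoring protein genes (filled over 100 CPM, open under it). Grey points over 2 kb lie mostly below 0 (84.6%, 88.3% and 90.0% in the classes 2 to 4, 4 to 8 and over 8 kb), as do the filled points of Cmya5, Akap6, Akap9 and Akap13.

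Transcripts of several PKA subunits were lower at the unadjusted level. Amount and activity of the kinase were not measured here. The paper reports that phosphorylation of PKA and of its substrates was increased in miDrp1KO muscle at this time point. Of the 6 subunit genes none passed the adjusted test, 3 were lower at an unadjusted p under 0.05 (6.22% of all genes were) and 4 had groups that did not overlap, all lower in miDrp1KO muscle (10.3% of all genes did so). The median log2 fold change of the 6 was −0.30. Values below 0 were also usual among abundant genes longer than 2 kb, as described above, and Prkar2a is an abundant gene. Prkar2a encodes RIIα, the subunit most AKAPs hold in muscle, and was at 215, 239 and 229 CPM in the controls and at 203, 147 and 128 CPM in A, E and F. The groups did not overlap, and A was close to the controls (log2 fold change −0.51, SE 0.21; unadjusted p = 0.0296, adjusted p = 0.416, edgeR). Prkar2b, for the RIIβ subunit typical of fat and nerve cells, was at 8.85, 14.6 and 13.3 CPM in controls and 7.19, 3.65 and 6.57 CPM in A, E and F (log2 fold change −1.09, SE 0.28; unadjusted p = 0.00281, adjusted p = 0.362, edgeR). The adipocyte marker sum was also lower (422, 676 and 543 CPM in the controls, 319, 280 and 399 CPM in A, E and F), and its part in the Prkar2b values was not tested.

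The main catalytic subunit gene Prkaca was at 30.0 to 31.2 CPM in controls and 19.4 to 25.9 CPM in miDrp1KO muscle (log2 fold change −0.38, SE 0.16; unadjusted p = 0.0399, adjusted p = 0.436, edgeR). Prkacb, the second catalytic gene, was at 51.2 to 52.0 CPM in controls and at 49.9, 42.9 and 39.2 CPM in A, E and F, again without overlap (log2 fold change −0.23; adjusted p = 0.609, edgeR). Type I regulatory subunits gave overlapping groups, with Prkar1a at 107 to 136 CPM in controls and 103 to 114 CPM in miDrp1KO muscle, and Prkar1b at most 1.54 CPM in any library. Leaving out control C, control D or library E left 1 of the 6 subunits under an unadjusted p of 0.05, where the shares of all genes were 10.5%, 5.36% and 7.18%. The inhibitor genes Pkia, Pkib and Pkig, whose peptides block the free catalytic subunit, had fold changes above 0 (0.11, 0.55 and 0.24 on the log2 scale) with none past an unadjusted p of 0.05 and all 3 groups overlapping. Pkia, the abundant one, was at 984 to 1177 CPM in controls and 1025 to 1242 CPM in miDrp1KO muscle.

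Of 23 further anchoring proteins, 22 were in the files and 19 were tested. None passed the adjusted test, 3 were lower (6.22% of all tested genes were) and 0 higher at an unadjusted p under 0.05, and the median log2 fold change was −0.05. The count of 3 was 5 without library A (17.5% of all genes) or control C (10.5%) and 6 with offsets for length and GC content (11.7%). Synm, for the intermediate filament synemin that binds RII and desmin, was at 1408, 1597 and 1639 CPM in the controls and at 1131, 785 and 411 CPM in A, E and F (log2 fold change −1.00; adjusted p = 0.382, edgeR). Pde4dip, for myomegalin, a scaffold of phosphodiesterase 4D at the sarcomere and Golgi, was at 3973, 3359 and 3668 CPM in controls and 2744, 1679 and 868 CPM in A, E and F (log2 fold change −1.06; adjusted p = 0.392, edgeR). Synm and Pde4dip are abundant, and values below 0 were usual among abundant genes longer than 2 kb, as described above. Whether they differ from other genes of like abundance was not tested. Both had the order A, E, F of Cmya5, with F lowest. Ldb3, for the Z-disc protein cypher, was at 989 to 1296 CPM in controls and 760 to 877 CPM in miDrp1KO muscle (log2 fold change −0.53; adjusted p = 0.417, edgeR), without that order. The groups of these 3 did not overlap, with miDrp1KO lower (10.3% of all genes), and 1 of the 19 did not overlap with miDrp1KO higher, where 7.67% of all genes did so. That 1 was Rab32, the mitochondrial anchoring GTPase, at 1.08 to 1.68 CPM in controls and 1.75 to 2.45 CPM in miDrp1KO muscle, and it is named here after its values were seen.

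Among genes for proteins that the scaffolds bring to PKA, several were lower at the unadjusted level. Of 28 such partners none passed the adjusted test, 8 were lower and 0 higher at an unadjusted p under 0.05, Dnm1l itself among the 8, and 11 had groups without overlap, all lower, where 6.22% and 10.3% of all tested genes were lower by these 2 measures. The median was −0.29, close to that of the 10 scaffolds. It was also close to the medians of the abundant genes described above. Those were −0.28 at 2 to 4 kb, −0.30 at 4 to 8 kb and −0.28 over 8 kb. In these classes 84.6%, 88.3% and 90.0% of genes were below 0. Whether the partners differ from other genes of like abundance was not tested. Ryr1, the calcium release channel, which is also one of the fibre markers, was at 2535, 2346 and 2216 CPM in controls and 1475, 967 and 414 CPM in A, E and F (log2 fold change −1.31, SE 0.39; adjusted p = 0.379, edgeR). Capn3, the muscle calpain that binds titin, was at 136 to 149 CPM in controls and 90.4 to 106 CPM in miDrp1KO muscle, with the 3 miDrp1KO libraries close together (log2 fold change −0.55, SE 0.16; adjusted p = 0.379, edgeR). The count of 8 was 14 without library A, where the share of all genes was 17.5% in place of 10.9%.

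Cyclases, phosphodiesterases and β-adrenergic receptors, which set the cyclic AMP level, included 21 tested genes of 22. None passed the adjusted test, 3 were lower, beside 6.22% of all tested genes, and 0 higher at an unadjusted p under 0.05, and the median was −0.25. Adcy2, an adenylyl cyclase, was at 44.8, 41.4 and 39.5 CPM in controls and 28.7, 21.6 and 19.3 CPM in A, E and F, so that each miDrp1KO library was well below each control (log2 fold change −0.85, SE 0.18; unadjusted p = 5.26e-04, adjusted p = 0.362, edgeR). Pde3b (log2 fold change −0.78; adjusted p = 0.382, edgeR) and the receptor gene Adrb3 (log2 fold change −1.04; adjusted p = 0.393, edgeR) are known from fat cells and overlapped between groups. Adrb3 was at 3.13, 2.77 and 1.98 CPM in the controls and 0.923, 0.907 and 2.02 CPM in A, E and F, and the part of the lower adipocyte marker sums given above in either was not tested. The 3 genes at an unadjusted p under 0.05 became 7 without control C, beside 10.5% of all genes. Their number was 6 with voom (12.8% of all genes), and 5 with no filter on low counts (9.40%) or with length and GC offsets (11.7%). Without library F it was 2 (7.79%).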

How the data were processed

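Per the study's methods, RNA was extracted from quadriceps, depleted of ribosomal RNA (TruSeq Stranded Total RNA with Ribo-Zero Gold) and sequenced in 2 pools, and which library was in which pool is not given in the sources used here. The authors aligned and counted reads with Rsubread on GRCm38 and deposited 1 file of raw read counts per gene for each library, listed by Entrez gene ID and symbol. Submitters' notes name DESeq2 1.30.0.

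From the deposited counts, genes with enough reads (filterByExpr, 16483) were scaled with TMM and tested with edgeR 4.0.16 (robust quasi-likelihood, genotype as the only term, Benjamini-Hochberg adjustment over all tested genes) in R 4.3.3. CPM are per TMM library size. limma voom 3.58.1 and DESeq2 1.42.0 were alternatives, beside other scalings, filters, a ribosomal RNA covariate, length and GC offsets, and leaving out each library. The scripts were tested on simulated data. Single values were compared by exact two-sided permutation over 3 against 3 libraries, which cannot go below p = 0.1. For correlations, a prior count of 2 was added before taking log2 CPM. Nothing says that libraries of a group came from separate litters or days, so p-values measure the spread between these libraries.

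Lengths came from GENCODE M21 (basic, GRCm38), which gave 90.0% of tested genes and all 10 members a length, and promoters from RefSeq (GRCm38.p6), matched by symbol. The 10 genes and all lists were chosen with earlier results of these data known. Genes named were the 10, Dnm1l, every PKA subunit and inhibitor, in each other list up to 3 genes with the lowest unadjusted p, and the 5 genes most correlated with Cmya5, the most abundant per length and the one with the lowest p. Esr1 was named outside this rule, as a check on the labels. Lars2 and genes that overlap the 10 also fall outside it, and single fibre markers were named after their values were seen. Other genes chosen outside this rule are said to be so.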

Additional observations from a re-analysis of the deposited data

How the results depend on the processing

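The call of 0 of the 10 anchoring protein genes at an adjusted p under 0.05 was the same under all 16 alternatives run. Of 160 fitted values of single genes, 144 kept the sign and 16 reversed. Upper quartile scaling gave 0.059 for Akap7, 0.046 for Akap11 and 0.045 for Akap12, a minimum of 10 counts in every library gave 0.012, 0.00087 and 0.00013 for the same 3, and leaving out ribosomal RNA genes and Lars2 gave 0.0094 for Akap7. Leaving out 1 library moved Akap7 between −0.089 and 0.018, Akap11 between −0.12 and 0.083, Akap12 between −0.25 and 0.12 and Akap13 between −0.31 and 0.016. The number of genes changed over all genes was 2, and it was 94 with DESeq2, 35 with DESeq2 without independent filtering, 8 with no filter on low counts and 1 to 7 when 1 library was left out. Members at an unadjusted p under 0.05, all lower, numbered 0, but 2 with DESeq2 or with length and GC correction, 1 with voom or with no filter, and 0 to 3 with 1 library left out, the 3 being Akap6, Akap9 and Cmya5 without A. The share of all genes at that level was 10.9%, 10.4% with DESeq2, 11.7% with length and GC correction, 12.8% with voom, 9.40% with no filter and 5.36% to 17.5% with 1 library left out, highest without A. The members' median of −0.28 was −0.37 to −0.080 with 1 library left out, and 1 gene in place of 2 had groups without overlap under upper quartile scaling or without ribosomal RNA genes, and 3 did with length and GC correction, Akap7 being the third. The share of all genes without overlap is given for the main setting only (18.0%, and 10.3% with miDrp1KO lower). The overlap counts under other settings therefore have no background here. The cause of these shifts was not tested. DESeq2 without independent filtering was chosen after seeing the data, as was the ratio of Cmya5 to the fibre markers. So were the alternatives to the main setting for the overlap count and for the log2 ratio of Cmya5 to the other members. The same holds for the alternatives for the PKA subunits, PKA inhibitors, further anchoring proteins, partners, and cyclases and phosphodiesterases. No paired analysis was possible because the sources used here name no pairs of mice across the 2 genotypes. The members had at least 233 counts in any library.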
